A study of Homo sapiens with 22 samples.

Results

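The 8 genes described here encode regulators of the G1 phase of the cell cycle: the CDK inhibitors CDKN1A, CDKN1B and CDKN1C, the D cyclins CCND1, CCND2 and CCND3, the kinase CDK6 and cyclin E1, CCNE1. They were followed in K562, an established human chronic myeloid leukaemia line (wild-type in the labels), through exposure to PMA, a phorbol ester that activates protein kinase C and drives these cells towards a megakaryocyte-like state. The 22 libraries form 11 groups of 2 and are chromatin profiles, read as CUT&RUN from the abbreviation in the sample titles. H3K27ac, Jun and CTCF were profiled at 0, 6 and 72 h of 25 nM PMA, and the cohesin subunit Rad21 at 0 and 72 h. All groups were fixed with 1% formaldehyde for 10 min in aliquots of 500000 cells, and the series' design text speaks of RNA-seq, which is not analysed here. Members are all deposited regions that overlap a gene's RefSeq span on GRCh38 widened by 50 kb on each side, called the gene's window. This gave 414 of 409446 regions: 113 of 95436 for H3K27ac, 146 of 138731 for Jun, 59 of 66168 for CTCF and 96 of 109111 for Rad21. Of these, 397 passed the filter on low counts (113, 143, 53 and 88), and 17 were not tested. The rule takes regions by position alone, with no measured value in it, but the set of 8 genes was proposed with earlier results of these data known.

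Library totals were 12634261 to 27266241 counts for H3K27ac, 4766421 to 18883962 for Jun, 2553677 to 6068421 for CTCF and 4398797 to 7285286 for Rad21. Levels are given for each library as CPM, counts per 1000000 of its TMM-scaled total in regions. A change is a log2 fold change ± standard error from edgeR's quasi-likelihood test over every region of an antibody, and "rose" or "fell" means a Benjamini-Hochberg adjusted p under 0.05 in that test. The labels do not say that the 2 libraries of a group came from separate cultures, so p-values measure the spread between these libraries, which may be technical. Regions singled out for the largest rise or fall of a window were picked among called regions whose groups did not overlap, so their calls and their separation are description and support nothing. Fewer cells carrying a mark and less of it per cell cannot be told apart.

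As background, D cyclins pair with CDK4 or CDK6 and cyclin E with CDK2, and both kinase complexes phosphorylate the retinoblastoma protein to release E2F factors and open S phase. CDKN1A (p21), CDKN1B (p27) and CDKN1C (p57) form the Cip/Kip family, which binds and restrains cyclin-CDK complexes. Megakaryocytes are known for endomitosis, in which DNA replicates without cell division, and D cyclins and CDK inhibitors are studied for their part in it. H3K27ac is a histone acetylation of active promoters and enhancers. Jun is a subunit of the AP-1 factor that phorbol esters activate. CTCF and cohesin together hold chromatin loops.

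The 250 bases before the start of 5 genes are shown because the counts at or beside these starts are among the largest described for each gene. They are from RefSeq on GRCh38.p14, 5′ to 3′ on the gene's strand, with matches to the searched motifs in capitals.
CDKN1A (chr6:36678464-36678713, plus strand): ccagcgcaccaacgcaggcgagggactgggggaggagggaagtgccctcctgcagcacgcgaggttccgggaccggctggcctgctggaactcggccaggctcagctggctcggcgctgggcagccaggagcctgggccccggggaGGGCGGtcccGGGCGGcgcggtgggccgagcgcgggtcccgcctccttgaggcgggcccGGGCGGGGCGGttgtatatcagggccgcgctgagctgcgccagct
CDKN1B (chr12:12717118-12717367, plus strand): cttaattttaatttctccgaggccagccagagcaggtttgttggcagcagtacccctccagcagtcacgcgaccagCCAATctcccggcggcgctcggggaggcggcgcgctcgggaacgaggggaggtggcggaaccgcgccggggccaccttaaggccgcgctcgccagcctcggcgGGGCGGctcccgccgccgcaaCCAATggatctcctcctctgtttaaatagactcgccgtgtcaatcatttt
CCND3 (chr6:41941809-41942058, minus strand): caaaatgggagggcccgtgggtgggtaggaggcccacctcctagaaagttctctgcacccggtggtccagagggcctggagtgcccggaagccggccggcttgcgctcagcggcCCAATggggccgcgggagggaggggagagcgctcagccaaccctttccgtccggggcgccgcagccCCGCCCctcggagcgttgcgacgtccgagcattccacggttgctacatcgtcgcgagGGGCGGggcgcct
CDK6 (chr7:92836574-92836823, minus strand): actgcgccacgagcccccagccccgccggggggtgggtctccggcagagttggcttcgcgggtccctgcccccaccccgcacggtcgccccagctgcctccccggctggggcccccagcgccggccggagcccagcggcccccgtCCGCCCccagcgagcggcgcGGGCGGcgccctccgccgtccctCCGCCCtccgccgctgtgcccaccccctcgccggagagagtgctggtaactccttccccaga
CCNE1 (chr19:29811741-29811990, plus strand): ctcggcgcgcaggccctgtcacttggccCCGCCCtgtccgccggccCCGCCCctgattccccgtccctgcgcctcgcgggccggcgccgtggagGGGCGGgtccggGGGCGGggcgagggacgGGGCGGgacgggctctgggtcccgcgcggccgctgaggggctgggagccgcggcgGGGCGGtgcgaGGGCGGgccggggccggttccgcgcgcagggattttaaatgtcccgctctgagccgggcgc
The RefSeq promoter table held 5 of the 8 genes, and for CCND3 the start numbered 2 of 3 and for CDK6 that numbered 1 of 2 are printed. The search covered both strands. The letters were TGANTCA for the AP-1 motif, GGGCGG for the GC box, CCAAT for the box of that name, TATAAA for the TATA box, AGATAA for the GATA motif and TTTNNCGC for the E2F motif. Of all 35116 promoter windows of this length, 6.57% held the AP-1 motif, 42.6% the GC box, 32.0% the CCAAT box, 10.7% the TATA box, 9.17% the GATA motif and 5.92% the E2F motif. The capitals are 4 GC boxes in CDKN1A, of which the last pair overlaps, 1 GC box and 2 CCAAT boxes in CDKN1B, 2 GC boxes and 1 CCAAT box in CCND3, 3 GC boxes in CDK6 and 7 in CCNE1. None of the other 4 motifs was matched in these windows. GC content was 76.4% for CDKN1A, 64.4% for CDKN1B, 71.2% for CCND3, 80% for CDK6 and 81.2% for CCNE1.

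Acetylation around the 8 genes moved in both directions, gene by gene. At 6 h, 72 of 113 H3K27ac regions changed, 31 higher and 41 lower, and over all 94865 tested H3K27ac regions 58.6% were called, 32.3% higher and 26.3% lower. At 72 h, 96 of 113 changed, 43 higher and 53 lower, against 81.5% of all regions, 43.4% higher and 38.1% lower. At least 2-fold changes numbered 30 higher and 35 lower at 72 h, against 38.5% and 26% of all regions, 64.5% together. The members' share of calls therefore lay near that of all regions. The median log2 change of the 113 regions was −0.066 at 6 h and −0.30 at 72 h, where all regions had medians of 0.19 and 0.18. Among all regions, those with a mean count of at least 50 had medians of 0.040 and −0.061, and gene windows had −0.20 and −0.30. The gap between the members and the rest therefore depends on the background taken. From 6 to 72 h, 67 of 113 changed, 27 higher and 40 lower, against 63.8% of all regions, 33.1% higher and 30.8% lower. Of the 113 regions, 29 were higher at both later times and 39 lower at both, where 27.6% and 23.4% of all regions were. Another 14 were higher and 14 lower at 72 h but not called at 6 h (15.02% and 13.8% of all regions). At 6 h alone 2 were higher and 2 lower (3.86% and 2.11%). At neither time were 13 called (12.5%), and 0 were called in opposite directions (1.67%).

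The split between higher and lower depended on how libraries were scaled. Scaling to total counts gave 39 higher and 28 lower at 6 h, 46 and 45 at 72 h, and 23 and 49 from 6 to 72 h. TMM factors taken only from regions where each library had a peak, called peak-region factors, gave 40 and 26, 49 and 31, and 39 and 21. The median of all regions moved from 0.18 at 72 h to 0.42 with total counts and 0.79 with the peak-region factors. At 6 h it moved from 0.19 to 0.53 and 0.54, so every log2 change given here is relative to the chosen scaling.

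By gene, the regions of CDKN1A and CCND1 held no called loss of H3K27ac against 0 h, and those of CCND2 no called gain. At 72 h, 7 of 8 CDKN1A regions rose (median log2 change 1.97, range 0.41 to 3.35). For CCND1, 8 of 9 regions rose (median 1.99, highest 4.38 in a region with few counts at 0 h). In CCND2 4 of 5 regions fell (median −2.21, range −5.23 to 0.11). CCND3 regions were mostly lower, with 19 of 30 falling and 3 rising at 6 h and 23 falling and 3 rising at 72 h (median −1.04, range −2.70 to 1.78). CDKN1B had 3 rises and 9 falls among 13 regions at 72 h, and CDKN1C 4 rises and 5 falls among 12. CDK6 was mixed, with 13 rises and 11 falls among 30. CCNE1 had 5 rises and 1 fall among 6, the fall being its strongest region and 4 of the rises being in regions with few counts at 0 h. The timing also differed: all 8 CCND1 regions that were higher at 72 h than at 0 h also rose from 6 to 72 h, 3 of them called higher already at 6 h, and 6 of 8 CDKN1A regions had risen by 6 h.

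**Figure D1:**
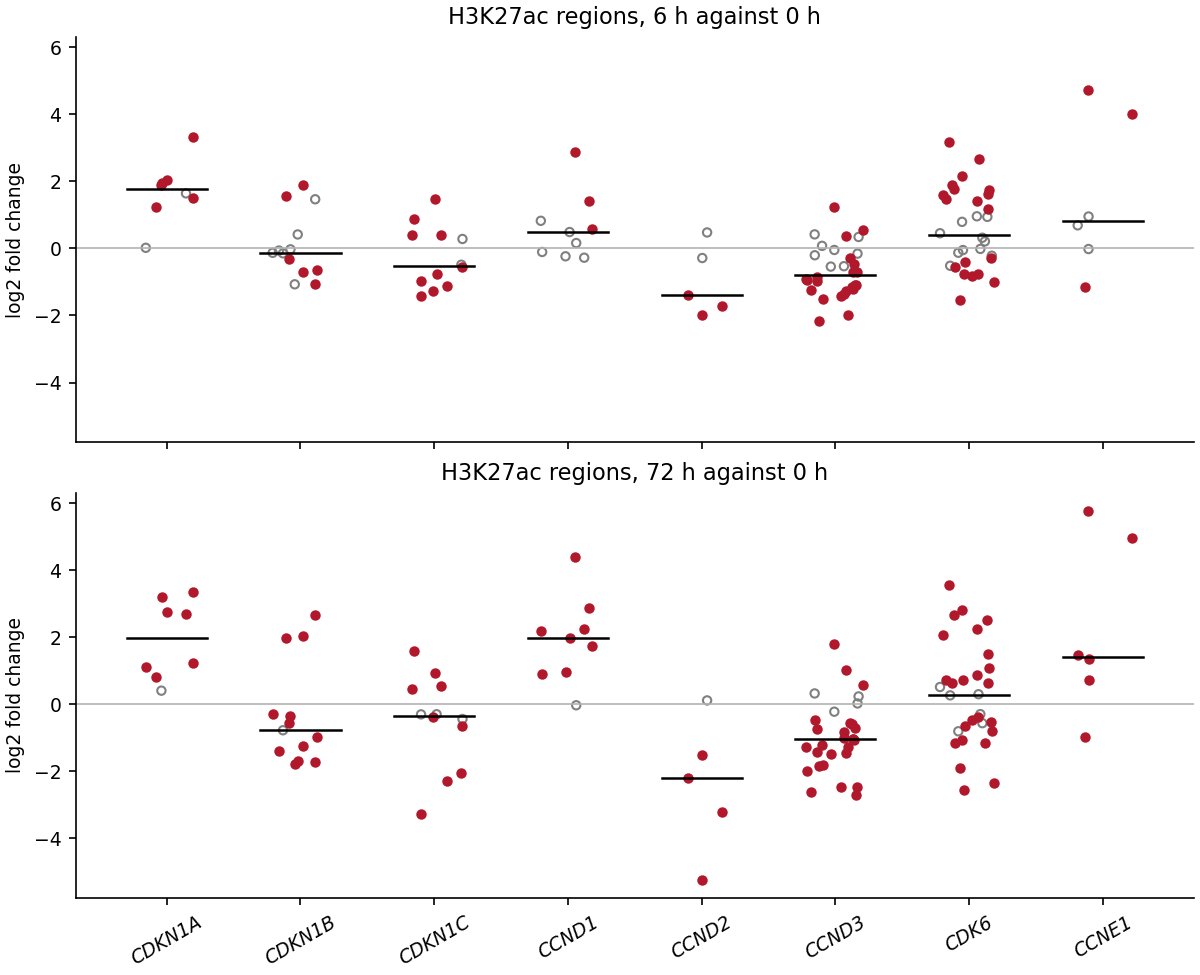
Log2 fold change of each H3K27ac region in the windows of the 8 genes at 6 h (top) and 72 h (bottom) against 0 h; filled points had an adjusted p under 0.05, open points did not, and the bar is the gene's median. Called points of CDKN1A and CCND1 lie above 0 and those of CCND2 below 0, with 23 of 30 CCND3 regions lower at 72 h.

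Summed over a whole window, H3K27ac rose in CDKN1A and CDK6 at 6 h and in CDKN1A, CCND1 and CDK6 at 72 h. Windows and regions could differ: the CCNE1 window fell although 5 of its 6 regions rose at 72 h, and the mixed CDK6 regions summed to a rise. Of the 8 windows, 7 changed at 6 h, of which 2 rose and 5 fell, against 76.3% of all gene windows tested, 27% higher and 49.3% lower. At 72 h 7 changed again, of which 3 rose and 4 fell, against 88.3%, 35.1% higher and 53.2% lower. Per kb of region, CCND3 carried the highest H3K27ac level at every time (33.97, 19.4 and 19.8 CPM per kb). CDKN1A was lowest at 0 h (4.42 CPM per kb), CCNE1 at 6 h (6.77) and CCND2 at 72 h (2.80). At 0 h the order below CCND3 was CDKN1B (22.6 CPM per kb), CCND2 (21.1), CCNE1 (12.1), CDK6 (11.9), CDKN1C (9.30) and CCND1 (8.85), with libraries of CCNE1 and CDK6 overlapping, and those of CDKN1C and CCND1. At 6 h no neighbours in the order overlapped: CDKN1B (16.7 CPM per kb), CDK6 (14.3), CDKN1A (11.6), CCND1 (9.71), CDKN1C (8.27) and CCND2 (7.47) stood between CCND3 and CCNE1. By 72 h CDK6 (13.8 CPM per kb), CCND1 (13.5) and CDKN1B (13.5) overlapped below CCND3, CDKN1A (10.01) followed, and CCNE1 (8.80) and CDKN1C (8.79) overlapped above CCND2.

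**Figure D2:**
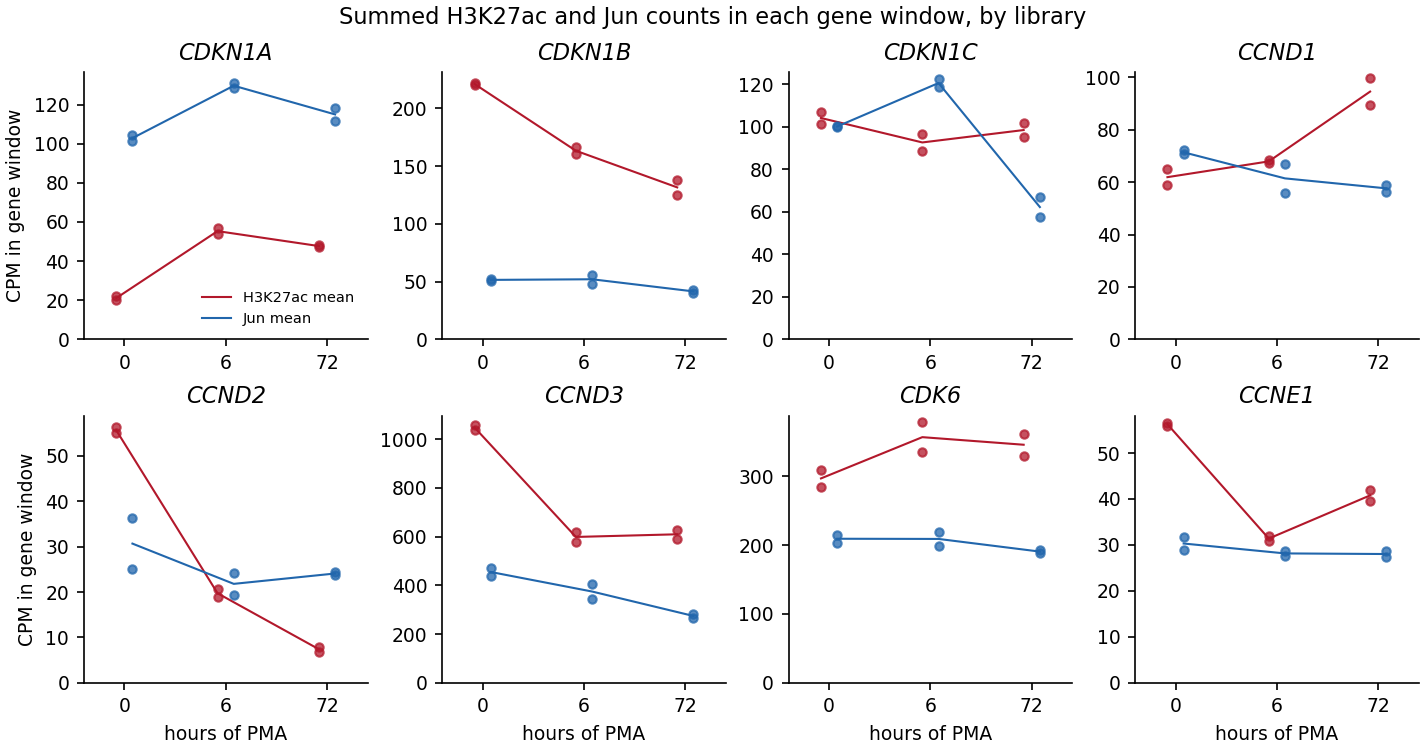
Summed CPM of H3K27ac (red) and Jun (blue) regions in each gene's window at 0, 6 and 72 h of PMA; each point is 1 library, lines join the means of 2 libraries, and each panel has its own axis from 0. H3K27ac in the CCND2 window falls from 54.99 and 56.4 to 7.997 and 6.81 CPM, and in the CDKN1A window rises from 20.1 and 22.02 to 56.7 and 53.9 CPM at 6 h.

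Among the CDK inhibitors, CDKN1A gained acetylation early and kept most of it. CDKN1A lies at chr6:36676463-36687332 and encodes p21, which blocks cyclin-CDK activity. Its summed window held 20.1 and 22.02 CPM at 0 h, 56.7 and 53.9 at 6 h, then 47.1 and 48.2 at 72 h. Both libraries at each later time lay above both at 0 h. The log2 change was 1.39 ± 0.09 (edgeR adjusted p = 3.11e-12) at 6 h and 1.18 ± 0.09 (edgeR adjusted p = 1.32e-11) at 72 h. From 6 to 72 h the window fell slightly, with a log2 change of −0.21 ± 0.08 (edgeR adjusted p = 0.022). That small fall was not compared across scalings. The median of all windows from 6 to 72 h was −0.026, −0.13 with total counts and 0.23 with the peak-region factors. The most acetylated CDKN1A region, chr6:36678781-36680227, lies in the gene span just downstream of the printed start. It held 173 and 236 counts at 0 h, 452 and 647 at 6 h, then 711 and 731 at 72 h, or 9.83 and 12.4 CPM at 0 h, 31.6 and 31.8 at 6 h, then 25.7 and 26.6 at 72 h. The later libraries stood clear of those at 0 h, with log2 changes of 1.51 ± 0.13 (edgeR adjusted p = 2.29e-10) at 6 h and 1.23 ± 0.13 (edgeR adjusted p = 2.32e-09) at 72 h. The other 7 CDKN1A regions had log2 changes of 0.41 to 3.35 at 72 h.

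CDKN1B, which encodes p27 and lies at chr12:12717368-12722369, went the other way at its start. Its window held 219.9 and 222 CPM at 0 h, 160.1 and 166 at 6 h, then 125 and 138 at 72 h. Libraries of different times did not overlap, and the log2 change was −0.44 ± 0.06 (edgeR adjusted p = 1.71e-06) at 6 h and −0.75 ± 0.06 (edgeR adjusted p = 1.16e-10) at 72 h. The 6 h call was lost with total counts (−0.10) and with the peak-region factors (−0.085). The region that holds the printed start, chr12:12715674-12717614, overlaps both GPR19 and CDKN1B and was the strongest of the window. It held 1104 and 1259 counts at 0 h, 546 and 835 at 6 h, then 772 and 736 at 72 h, or 62.7 and 66.3 CPM at 0 h, 38.2 and 41.1 at 6 h, then 27.9 and 26.8 at 72 h. It fell at both times without overlap, with a log2 change of −0.70 ± 0.10 (edgeR adjusted p = 2.76e-06) at 6 h and −1.24 ± 0.10 (edgeR adjusted p = 5.12e-11) at 72 h. A neighbouring region over GPR19, chr12:12714856-12715362, held 262 and 280 counts at 0 h, 104 and 141 at 6 h, then 107 and 139 at 72 h, and its 72 h fall was larger at −1.73 ± 0.17 (edgeR adjusted p = 7.49e-10). In contrast, a region over APOLD1, chr12:12758437-12759531, held 26 and 36 counts at 0 h, 69 and 105 at 6 h, then 176 and 188 at 72 h. It rose by 1.96 ± 0.23 (edgeR adjusted p = 3.17e-08) at 72 h, so the window contained gains and losses within 50 kb of the gene.

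CDKN1C encodes p57, the imprinted member of the family, and lies at chr11:2883218-2885775. Its window total moved little, with 101 and 107 CPM at 0 h, 96.4 and 88.7 at 6 h, then 94.95 and 102 at 72 h. The log2 change was −0.17 ± 0.07 (edgeR adjusted p = 0.0277) at 6 h and −0.081 ± 0.07 (edgeR adjusted p = 0.255) at 72 h. The 6 h value turned to 0.067 with DESeq2, 0.18 with the peak-region factors and 0.16 with total counts, so the window has no settled direction. Its 6 h call was also lost without replicate 2 at 0 h (−0.13) or at 6 h (−0.14). Single regions moved clearly apart. The region chr11:2898206-2899318 held 81 and 83 counts at 0 h, 125 and 156 at 6 h, then 337 and 413 at 72 h, and rose by 1.60 ± 0.17 (edgeR adjusted p = 5.67e-09) at 72 h. The region chr11:2890689-2891897 held 251 and 271 counts at 0 h, 125 and 97 at 6 h, then 95 and 66 at 72 h, and fell, with a log2 change of −2.29 ± 0.22 (edgeR adjusted p = 6.17e-10). Within the gene span itself, chr11:2885221-2885858, named after its values were seen, held 79 and 74 counts at 0 h, 54 and 47 at 6 h, then 29 and 27 at 72 h, a 72 h log2 change of −2.04 ± 0.31 (edgeR adjusted p = 1.72e-06). The strongest region, chr11:2929514-2930884, held 309 and 441 counts at 0 h, 370 and 570 at 6 h, then 772 and 864 at 72 h, and rose at 72 h by 0.54 ± 0.13 (edgeR adjusted p = 3.83e-04). In SLC67A1, chr11:2912347-2913505 held 29 and 49 counts at 0 h, 88 and 115 at 6 h, then 104 and 118 at 72 h, with log2 changes of 1.47 at 6 h and 0.92 at 72 h. A dip and return appeared at chr11:2867513-2868957, with 14.1 and 13.3 CPM at 0 h, 4.55 and 6.49 at 6 h, then 10.7 and 10.4 at 72 h. It fell at 6 h, with a log2 change of −1.29 ± 0.17 (edgeR adjusted p = 5.93e-07) and rose from 6 to 72 h by 0.91 ± 0.17 (edgeR adjusted p = 6.28e-05). Its 72 h value against 0 h was −0.38, a call that ended under DESeq2 (−0.33) and turned to 0.23 with the peak-region factors.

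The 3 D cyclin genes took different courses. CCND1 (cyclin D1, chr11:69641156-69654474) gained acetylation late, with a window of 58.9 and 64.9 CPM at 0 h, 68.5 and 67.4 at 6 h, then 89.4 and 99.8 at 72 h. The 6 h libraries stood a little above those at 0 h and the 72 h libraries above all others. The log2 change was 0.13 ± 0.08 (edgeR adjusted p = 0.118) at 6 h, which did not pass the test, and 0.61 ± 0.07 (edgeR adjusted p = 5.04e-08) at 72 h. The 6 h value was called under DESeq2 (0.37), with total counts (0.47) and with the peak-region factors (0.48). The strongest region inside the gene span, chr11:69641184-69643044, named after its values were seen, held 234 and 293 counts at 0 h, 181 and 240 at 6 h, then 704 and 847 at 72 h, or 13.3 and 15.4 CPM at 0 h, 12.7 and 11.8 at 6 h, then 25.5 and 30.8 at 72 h. Both 72 h libraries stood above all others there, and both 6 h libraries lay below those at 0 h. The log2 change was −0.24 ± 0.14 (edgeR adjusted p = 0.153) at 6 h, 0.97 ± 0.13 (edgeR adjusted p = 1.93e-07) at 72 h and 1.21 ± 0.13 (edgeR adjusted p = 2.00e-08) from 6 to 72 h. Just before the gene span, chr11:69639144-69640030 held 59 and 69 counts at 0 h, 72 and 111 at 6 h, then 311 and 337 at 72 h, and rose at 72 h by 1.75 ± 0.18 (edgeR adjusted p = 2.79e-09). The strongest region of the window overlaps the neighbouring gene LTO1 at chr11:69674342-69676460. It held 668 and 790 counts at 0 h, 633 and 906 at 6 h, then 1037 and 1111 at 72 h, and its 72 h change of −0.030 ± 0.10 (edgeR adjusted p = 0.798) did not pass the test. It was 0.20 with total counts and 0.58 with the peak-region factors. The whole CCND1 window held 1037 and 1232 counts at 0 h, most of them in the regions given here. Its other regions, among them that with the highest 72 h rise of 4.38, therefore started from few counts.

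CCND2 (cyclin D2, chr12:4273762-4305353) lost most of its H3K27ac. The window held 54.99 and 56.4 CPM at 0 h, 20.6 and 18.8 at 6 h, then 7.997 and 6.81 at 72 h. Each later time lay below the one before it without overlap, with log2 changes of −1.50 ± 0.11 (edgeR adjusted p = 1.56e-11) at 6 h, −2.91 ± 0.11 (edgeR adjusted p = 6.21e-17) at 72 h and −1.41 from 6 to 72 h. The region just before the gene span, chr12:4272605-4273301, held 302 and 305 counts at 0 h, 61 and 83 at 6 h, then 14 and 10 at 72 h, or 17.2 and 16.1 CPM at 0 h, 4.27 and 4.08 at 6 h, then 0.507 and 0.364 at 72 h. Both 72 h libraries were near the bottom of the scale there. The fall was −1.99 ± 0.18 (edgeR adjusted p = 8.28e-10) at 6 h and −5.23 ± 0.24 (edgeR adjusted p = 2.52e-16) at 72 h. The next region, chr12:4271446-4272504, was the strongest of the window at 0 h and held 459 and 497 counts at 0 h, 116 and 158 at 6 h, then 94 and 61 at 72 h, or 26.1 and 26.2 CPM at 0 h, 8.11 and 7.77 at 6 h, then 3.40 and 2.22 at 72 h. It also fell in steps, with a log2 change of −1.72 ± 0.16 (edgeR adjusted p = 7.28e-10) at 6 h and −3.21 ± 0.17 (edgeR adjusted p = 3.75e-15) at 72 h. The CCND2 window had 5 H3K27ac regions, 4 of them before the gene span by coordinate. All 5 overlap the span of CCND2-AS1, so acetylation of that gene and of CCND2 cannot be told apart.

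CCND3 (cyclin D3, chr6:41934933-42050035) had the most sequence in H3K27ac regions of the 8 genes. Under the chosen scaling it lost a similar amount at both times. Its window held 1039 and 1056 CPM at 0 h, 578 and 619 at 6 h, then 592 and 627 at 72 h. The 0 h libraries lay above all later ones, and those at 6 and 72 h overlapped. The log2 change was −0.81 ± 0.08 (edgeR adjusted p = 7.43e-09) at 6 h and −0.78 ± 0.08 (edgeR adjusted p = 5.53e-09) at 72 h. Both values are given for that scaling only, and their likeness depends on it. With the peak-region factors the 72 h median of all gene windows was 0.31, against −0.30 under the chosen scaling. Their 6 h medians were 0.15 and −0.20. How much of the CCND3 loss remained at 72 h is therefore not settled. The region that holds the printed CCND3 start, chr6:41941809-41943665, held 2331 and 2511 counts at 0 h, 784 and 1188 at 6 h, then 1701 and 1869 at 72 h, or 132 and 132 CPM at 0 h, 54.8 and 58.5 at 6 h, then 61.6 and 68.05 at 72 h. It fell by 6 h and stayed below 0 h, with −1.22 ± 0.11 (edgeR adjusted p = 3.00e-10) at 6 h and −1.03 ± 0.10 (edgeR adjusted p = 1.48e-09) at 72 h. The steepest early loss lay within the gene span at chr6:42030814-42031773, with 71.97 and 77.96 CPM at 0 h, 15.8 and 17.4 at 6 h, then 19.8 and 21.99 at 72 h. That was a log2 change of −2.17 ± 0.12 (edgeR adjusted p = 3.18e-14) at 6 h and −1.84 ± 0.11 (edgeR adjusted p = 3.95e-14) at 72 h. At chr6:41960172-41960417 there were 112 and 113 counts at 0 h, 38 and 62 at 6 h, then 26 and 26 at 72 h, and the 72 h fall was −2.70 ± 0.27 (edgeR adjusted p = 1.52e-09). Against that trend, chr6:41976710-41977560, also within the span, held 49 and 52 counts at 0 h, 81 and 144 at 6 h, then 267 and 257 at 72 h. It rose by 1.22 ± 0.21 (edgeR adjusted p = 2.42e-05) at 6 h and 1.78 ± 0.20 (edgeR adjusted p = 8.98e-09) at 72 h. The strongest region of the window covers MED20 and BYSL at chr6:41919326-41922604, with 141 and 142 CPM at 0 h, 98.4 and 106 at 6 h, then 66.4 and 69.03 at 72 h and a 72 h log2 change of −1.06. Its 6 h fall of −0.47 was not called with total counts (−0.13) or the peak-region factors (−0.11).

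CDK6 (chr7:92604921-92836573), the kinase partner of D cyclins, held strong gains and losses within its gene span. Its window total rose slightly, with 284 and 309 CPM at 0 h, 335 and 378 at 6 h, then 329.6 and 362 at 72 h. The log2 change of the total was 0.27 ± 0.08 (edgeR adjusted p = 0.00574) at 6 h and 0.22 ± 0.08 (edgeR adjusted p = 0.0158) at 72 h. Both calls were lost without replicate 1 at 0 h (0.21 and 0.16). The 6 h call was lost without replicate 2 at 6 h (0.15) and the 72 h call without replicate 2 at 72 h (0.15). The region chr7:92640771-92642741 held 83 and 79 counts at 0 h, 536 and 874 at 6 h, then 1332 and 1543 at 72 h, or 4.71 and 4.16 CPM at 0 h, 37.5 and 43.004 at 6 h, then 48.2 and 56.2 at 72 h. Later libraries stood far above both at 0 h, a rise of 3.19 ± 0.15 (edgeR adjusted p = 2.36e-15) at 6 h and 3.56 ± 0.14 (edgeR adjusted p = 1.61e-17) at 72 h. A few kb away, chr7:92632756-92635965, the strongest region of the window, had 27.5 and 28.8 CPM at 0 h, 80.7 and 94.1 at 6 h, then 76.7 and 81.6 at 72 h, a 72 h rise of 1.49 ± 0.11 (edgeR adjusted p = 4.57e-12). At chr7:92755771-92756613, nearer the gene start, the region held 170 and 159 counts at 0 h, 73 and 111 at 6 h, then 41 and 43 at 72 h, a 72 h log2 change of −2.56 ± 0.22 (edgeR adjusted p = 5.46e-11). The region at the CDK6 start, chr7:92836640-92838579, was high throughout, with 63.4 and 70.2 CPM at 0 h, 50.4 and 59.6 at 6 h, then 41.3 and 50.9 at 72 h. Its log2 change of −0.54 ± 0.12 (edgeR adjusted p = 1.56e-04) at 72 h became 0.067 with the peak-region factors. The 6 h fall of −0.28 became 0.056 with total counts and 0.072 with those factors. At chr7:92885473-92886708, beyond the start, the 6 h fall was −0.82 ± 0.22 (edgeR adjusted p = 0.00256). Without replicate 2 at 0 h it was −0.42 and no longer called.

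CCNE1 (chr19:29811991-29824312) encodes cyclin E1, the activator of CDK2 at entry into S phase. Its window held 55.9 and 56.6 CPM at 0 h, 30.8 and 31.9 at 6 h, then 39.5 and 42.1 at 72 h, below 0 h at both times without overlap. The log2 change was −0.84 ± 0.08 (edgeR adjusted p = 5.44e-09) at 6 h and −0.46 ± 0.08 (edgeR adjusted p = 9.60e-06) at 72 h. The 72 h call ended under DESeq2 (−0.16) and the value turned to 0.14 with the peak-region factors. Most of the window's counts came from chr19:29810003-29811643, a region 347 bases before the gene span. It held 839 and 954 counts at 0 h, 299 and 470 at 6 h, then 653 and 727 at 72 h, or 47.7 and 50.3 CPM at 0 h, 20.9 and 23.1 at 6 h, then 23.6 and 26.5 at 72 h. That region fell and stayed low, with a log2 change of −1.15 ± 0.11 (edgeR adjusted p = 2.94e-09) at 6 h and −0.97 ± 0.11 (edgeR adjusted p = 9.71e-09) at 72 h. Beyond the gene, chr19:29844825-29846252 held 126 and 103 counts at 0 h, 90 and 124 at 6 h, then 290 and 280 at 72 h. Its groups overlapped at 6 h, and it rose at 72 h by 0.72 ± 0.17 (edgeR adjusted p = 5.05e-04). The remaining 4 CCNE1 regions all rose at 72 h, up to a log2 change of 5.76. The whole window held 984 and 1075 counts at 0 h, nearly all in the 2 regions above, so these 4 started from few counts.

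**Figure D3:**
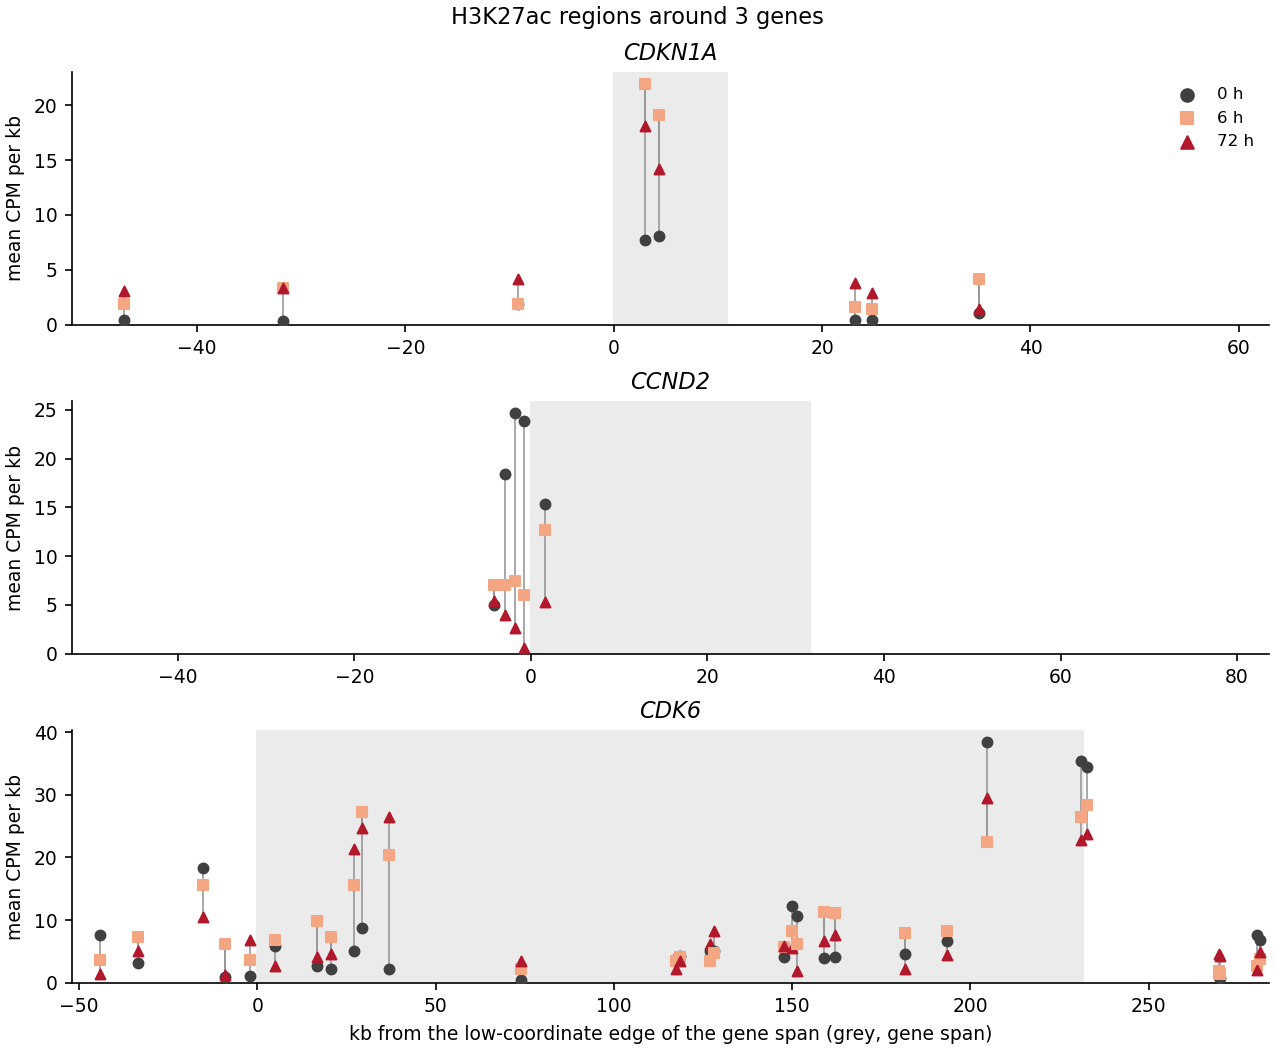
Mean H3K27ac level (CPM per kb, 2 libraries) of each region at 0, 6 and 72 h around CDKN1A, CCND2 and CDK6, against distance in kb from the low-coordinate edge of the gene span, shaded grey. The CDKN1A regions in the span rise after 0 h, the CCND2 regions just before the span fall step by step, and CDK6 shows both rises and falls within its span.

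Jun binding around the 8 genes fell more often than it rose under the chosen scaling. At 6 h, 39 of 143 Jun regions changed, 13 higher and 26 lower, against 25.3% of all 132947 regions, 13.1% higher and 12.2% lower. At 72 h, 69 changed, 23 higher and 46 lower, against 53.7% of all regions, 28% higher and 25.7% lower. From 6 to 72 h, 29 changed, 6 higher and 23 lower, against 26.2% (12.7% and 13.4%). The direction of the 72 h split rested on the scaling. Total counts gave 48 higher and 22 lower, and the peak-region factors 61 and 18. From 6 to 72 h total counts gave 23 and 6, and those factors 32 and 4, while at 6 h they gave 20 and 19, and 17 and 21. The median of all Jun regions at 72 h was 0.17, 0.73 with total counts and 0.96 with the peak-region factors. Calls also became fewer without single libraries. At 6 h 21 were left without replicate 2 at 0 h. At 72 h 41 and 34 were left without replicate 1 or replicate 2 of that time, and from 6 to 72 h 11 and 5.

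Of the 8 Jun windows, 3 changed at 6 h (2 higher, 1 lower), against 51% of all gene windows, 20.8% higher and 30.2% lower. At 72 h 5 changed, all lower, against 76.5%, 48.2% lower. The CDKN1A window held 104 and 101 CPM at 0 h, 128 and 131 at 6 h, then 118 and 112 at 72 h, the later libraries above those at 0 h. Its rise was 0.33 ± 0.09 (edgeR adjusted p = 0.00447) at 6 h, a call lost without replicate 2 at 0 h (0.31), at 6 h (0.23) or at 72 h (0.25). At 72 h the change of 0.16 ± 0.09 (edgeR adjusted p = 0.101) did not pass the test, but was called with total counts (0.72), the peak-region factors (0.95) and DESeq2 (0.41). The clearest Jun gain of CDKN1A lay before the gene span at chr6:36644447-36645381, with 32 and 29 counts at 0 h, 45 and 85 at 6 h, then 272 and 338 at 72 h, or 4.65 and 4.14 CPM at 0 h, 10.2 and 15.4 at 6 h, then 12.9 and 14.3 at 72 h. Both later times stood above 0 h, by 1.56 ± 0.28 (edgeR adjusted p = 2.75e-04) at 6 h and 1.63 ± 0.25 (edgeR adjusted p = 1.61e-05) at 72 h, and the H3K27ac region it overlaps also rose. Over the start, where the printed CDKN1A sequence has no AP-1 letters, chr6:36678457-36678656 held 19 and 15 counts at 0 h, 14 and 31 at 6 h, then 65 and 68 at 72 h. It passed no test (log2 change 0.87 at 6 h and 0.28 at 72 h). The strongest CDKN1A Jun region, chr6:36680006-36680767 within the gene, had 30.5 and 32.97 CPM at 0 h, 40.7 and 34.5 at 6 h, then 22.6 and 18.7 at 72 h. Its 72 h log2 change of −0.62 ± 0.19 (edgeR adjusted p = 0.0083) was −0.060 with total counts and 0.17 with the peak-region factors. That call was lost without replicate 2 at 0 h (−0.56) or at 72 h (−0.58).

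At the other inhibitors Jun was mostly lower at 72 h. The CDKN1B window held 52.6 and 50.2 CPM at 0 h, 47.9 and 55.97 at 6 h, then 42.7 and 40.2 at 72 h, a 72 h change of −0.31 ± 0.10 (edgeR adjusted p = 0.00787). Its strongest Jun region, chr12:12726531-12727220 in APOLD1, had 15.8 and 16.1 CPM at 0 h, 11.98 and 12.5 at 6 h, then 8.57 and 7.86 at 72 h, and fell at 72 h, with a log2 change of −0.96 ± 0.20 (edgeR adjusted p = 3.55e-04). Total counts turned the window to 0.25 and ended the call of the region (−0.40). Without replicate 1 at 0 h the window's call was lost (−0.28). The CDKN1C window rose and then fell, with 100.3 and 99.8 CPM at 0 h, 119 and 122 at 6 h, then 66.8 and 57.5 at 72 h. The change was 0.27 ± 0.10 (edgeR adjusted p = 0.0228) at 6 h and −0.69 ± 0.09 (edgeR adjusted p = 2.36e-07) at 72 h. The 6 h call was lost without either 0 h library or without replicate 2 at 6 or 72 h (0.16 to 0.27). The 72 h value was −0.13 with total counts and 0.10 with the peak-region factors. At the edge of the CDKN1C gene span, chr11:2885690-2886031 held 52 and 33 counts at 0 h, 19 and 13 at 6 h, then 33 and 20 at 72 h, or 7.55 and 4.71 CPM at 0 h, 4.29 and 2.36 at 6 h, then 1.56 and 0.845 at 72 h. It was lower at 72 h, with a log2 change of −2.35 ± 0.39 (edgeR adjusted p = 3.96e-05), a fall called under all 3 other scalings tried.

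At the D cyclins, the CCND1 Jun window held 70.6 and 72.2 CPM at 0 h, 55.8 and 67.05 at 6 h, then 58.9 and 56.4 at 72 h. The CCND2 window held 25.1 and 36.3 CPM at 0 h, 24.2 and 19.4 at 6 h, then 23.7 and 24.5 at 72 h. The 72 h changes were −0.31 ± 0.10 (edgeR adjusted p = 0.0055) for CCND1 and −0.35 ± 0.15 (edgeR adjusted p = 0.0341) for CCND2. Both turned positive with total counts (0.25 and 0.22). The CCND2 values rested on the spread at 0 h, since without replicate 2 there they were −0.21 at 6 h and −0.059 at 72 h. Beyond CCND1, chr11:69681844-69682601 held 24 and 16 counts at 0 h, 32 and 44 at 6 h, then 152 and 179 at 72 h, and rose at 72 h by 1.35 ± 0.29 (edgeR adjusted p = 4.94e-04). Further on, chr11:69688050-69689055 had 20.9 and 18.3 CPM at 0 h, 10.2 and 14.9 at 6 h, then 6.68 and 6.26 at 72 h, and fell, with a log2 change of −1.60 ± 0.21 (edgeR adjusted p = 2.58e-06). CCND3 had the highest Jun level per kb at every time (26.8, 22.1 and 16.2 CPM per kb). Its window held 437 and 473 CPM at 0 h, 344 and 405 at 6 h, then 282 and 267 at 72 h, lower at 72 h without overlap. The change was −0.73 ± 0.12 (edgeR adjusted p = 3.89e-06), but −0.17 with total counts and 0.060 with the peak-region factors. Some CCND3 regions fell under all 4 scalings tried. Within the span, chr6:42010525-42010995 held 58 and 53 counts at 0 h, 6 and 7 at 6 h, then 55 and 56 at 72 h, falling, with a log2 change of −2.60 ± 0.41 (edgeR adjusted p = 7.27e-05) at 6 h and −1.68 ± 0.29 (edgeR adjusted p = 4.99e-05) at 72 h. At chr6:42092039-42092553 there were 82 and 116 counts at 0 h, 23 and 31 at 6 h, then 48 and 49 at 72 h, a 72 h log2 change of −2.71 ± 0.26 (edgeR adjusted p = 5.20e-08). In both, the 0 h libraries stood above all later ones in CPM. A passing gain was seen at chr6:41958180-41958693, with 7.26 and 4.85 CPM at 0 h, 13.1 and 15.3 at 6 h, then 4.12 and 4.86 at 72 h. It rose at 6 h by 1.23 ± 0.27 (edgeR adjusted p = 0.00173) and fell from 6 to 72 h, with a log2 change of −1.66 ± 0.25 (edgeR adjusted p = 5.65e-05). Over the printed CCND3 start, chr6:41941751-41942590 had 24.5 and 23.7 CPM at 0 h, 24.4 and 30.5 at 6 h, then 17.1 and 15.2 at 72 h. Its 72 h fall of −0.58 was −0.021 with total counts and 0.21 with the peak-region factors, and was not called without any single 0 h or 72 h library (−0.66 to −0.55).

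The CDK6 and CCNE1 Jun windows passed no test against 0 h. CDK6 held 204 and 215 CPM at 0 h, 199 and 219 at 6 h, then 192 and 189 at 72 h, and CCNE1 31.6 and 28.97 CPM at 0 h, 28.7 and 27.6 at 6 h, then 28.7 and 27.3 at 72 h, with log2 changes at 72 h of −0.13 and −0.11. These turned to 0.43 and 0.45 with total counts and 0.65 and 0.67 with the peak-region factors. The strongest CDK6 Jun region, chr7:92641669-92642773, overlaps the H3K27ac region with the largest CDK6 gain. It held 132 and 123 counts at 0 h, 153 and 223 at 6 h, then 650 and 647 at 72 h, or 19.2 and 17.6 CPM at 0 h, 34.6 and 40.5 at 6 h, then 30.8 and 27.3 at 72 h. Both later times stood above 0 h, by 1.04 ± 0.20 (edgeR adjusted p = 5.71e-04) at 6 h and 0.66 ± 0.19 (edgeR adjusted p = 0.00573) at 72 h. The 72 h call was lost without replicate 2 at 0 h (0.60) or either 72 h library (0.58 and 0.66). A few kb away, chr7:92634072-92634416 had 9.15 and 10.8 CPM at 0 h, 3.84 and 4.91 at 6 h, then 4.07 and 4.14 at 72 h. Jun fell there at 72 h, with a log2 change of −1.28 ± 0.25 (edgeR adjusted p = 1.74e-04), inside the strongest CDK6 H3K27ac region, which rose. The strongest CCNE1 Jun region, chr19:29844493-29846127 beyond the gene, had 18.6 and 15.3 CPM at 0 h, 9.72 and 9.99 at 6 h, then 7.01 and 8.45 at 72 h, a 72 h log2 change of −1.13 ± 0.21 (edgeR adjusted p = 1.06e-04). With the peak-region factors those 72 h falls were −0.49 and −0.34, neither called.

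H3K27ac and Jun regions overlapped in 88 pairs. At 72 h 47 pairs changed in both: 9 rose in both, 28 fell in both, 10 rose in H3K27ac and fell in Jun, and none did the reverse. Thus 78.7% of the called pairs moved together, where 94.2% of the 42879 called pairs of all regions did. The 28 shared falls were 14 in CCND3, 5 each in CDK6 and CDKN1C, 3 in CDKN1B and 1 in CCND2. The 9 shared rises were 3 in CCND1, 2 each in CDKN1A and CDK6, and 1 each in CCND3 and CCNE1. The 10 opposed pairs were 4 in CDK6, 3 of them in the strongest region, 3 in CDKN1C, 2 in CDKN1A within the gene and 1 in CCNE1. They too moved with the scaling, numbering 6 under DESeq2, 2 with total counts and 0 with the peak-region factors. Pairs can share a region, so they are not independent.

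**Figure D4:**
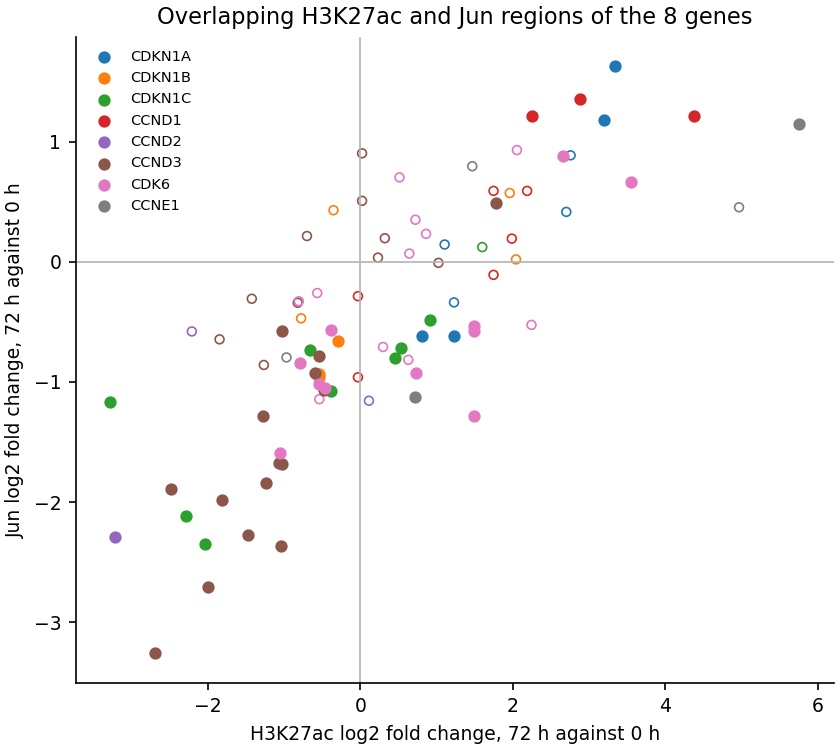
Log2 fold change at 72 h against 0 h of 88 overlapping pairs of H3K27ac (x axis) and Jun (y axis) regions, coloured by gene; filled points were called in both antibodies. Of the 47 filled points, 9 lie at the upper right, 28 at the lower left, 10 at the lower right and none at the upper left.

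Cohesin gains were most frequent at CDKN1A. Of 88 tested Rad21 regions, 16 changed at 72 h, 10 higher and 6 lower, against 23.3% of all 83750 regions, 15.4% higher and 7.91% lower. Total counts gave 7 higher and 10 lower, DESeq2 3 and 2, and leaving out either 72 h library left 5 calls. Rises were 4 of 7 regions in CDKN1A, 2 of 10 in CCND1, 2 of 27 in CCND3 and 2 of 21 in CDK6. Falls were 5 in CCND3 and 1 of 5 in CCNE1. No region of CDKN1B, CDKN1C or CCND2 was called, among 8, 8 and 2 tested. Of the 8 windows, 4 changed, 2 higher and 2 lower, against 30.4% of all windows (15.3% and 15.2%). The CDKN1A window had 35.5 and 30.5 CPM at 0 h against 51.7 and 55.4 at 72 h, both later libraries above both earlier ones. The rise was 0.69 ± 0.15 (edgeR adjusted p = 2.76e-04), a call kept under every alternative tried for it. The CDKN1B window had 49.3 and 43.2 CPM at 0 h against 38.4 and 29.1 at 72 h, a change of −0.45 ± 0.15 (edgeR adjusted p = 0.0227). The CDKN1C window had 53.98 and 47.3 CPM at 0 h against 41.4 and 35.3 at 72 h, a change of −0.40 ± 0.14 (edgeR adjusted p = 0.0313). The CCND1 window had 31.3 and 32.1 CPM at 0 h against 39.1 and 44.6 at 72 h, a change of 0.40 ± 0.15 (edgeR adjusted p = 0.0452). Those 3 calls ended under DESeq2 and without either 72 h library. Without replicate 1 at 0 h the CDKN1B and CDKN1C values were −0.14 and −0.090.

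Within CDKN1A, the Rad21 region chr6:36680047-36680955 held 107 and 70 counts (0 h) versus 184 and 150 (72 h), or 16.3 and 14.3 CPM at 0 h against 26.6 and 27.4 at 72 h, and rose by 0.81 ± 0.24 (edgeR adjusted p = 0.0189). It shares its site with H3K27ac, Jun and CTCF regions. DESeq2 (0.82), total counts (0.64) and the omission of either 72 h library (0.88 and 0.86) ended that call. A second CDKN1A region, chr6:36682198-36682506, held 9 and 10 counts (0 h) versus 52 and 31 (72 h), and rose by 1.97 ± 0.45 (edgeR adjusted p = 0.00304). The call was lost without replicate 1 at 72 h (1.79). At the CDK6 site that gained H3K27ac and Jun, the Rad21 region chr7:92641692-92642628 held 32 and 35 counts (0 h) versus 116 and 78 (72 h), or 4.88 and 7.16 CPM at 0 h against 16.7 and 14.3 at 72 h. It rose by 1.39 ± 0.30 (edgeR adjusted p = 0.00186), so all 3 antibodies were higher there at 72 h. CCND3 had both directions. The region chr6:42099777-42100915 held 75 and 42 counts (0 h) versus 186 and 128 (72 h), and rose by 1.31 ± 0.26 (edgeR adjusted p = 9.58e-04). The region chr6:41957113-41957668 held 78 and 49 counts (0 h) versus 15 and 18 (72 h), and fell, with a log2 change of −2.03 ± 0.36 (edgeR adjusted p = 3.45e-04). For CCND1, chr11:69674418-69674766 over LTO1 held 16 and 11 counts (0 h) versus 36 and 34 (72 h), and rose by 1.26 ± 0.43 (edgeR adjusted p = 0.0352). This call ended under DESeq2 (1.28) and without any single library (1.21 to 1.53). Of 62 overlapping H3K27ac and Rad21 pairs, 12 were called in both, 8 higher and 4 lower, with none opposed. Over all regions 96.1% of such pairs moved together.

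**Figure D5:**
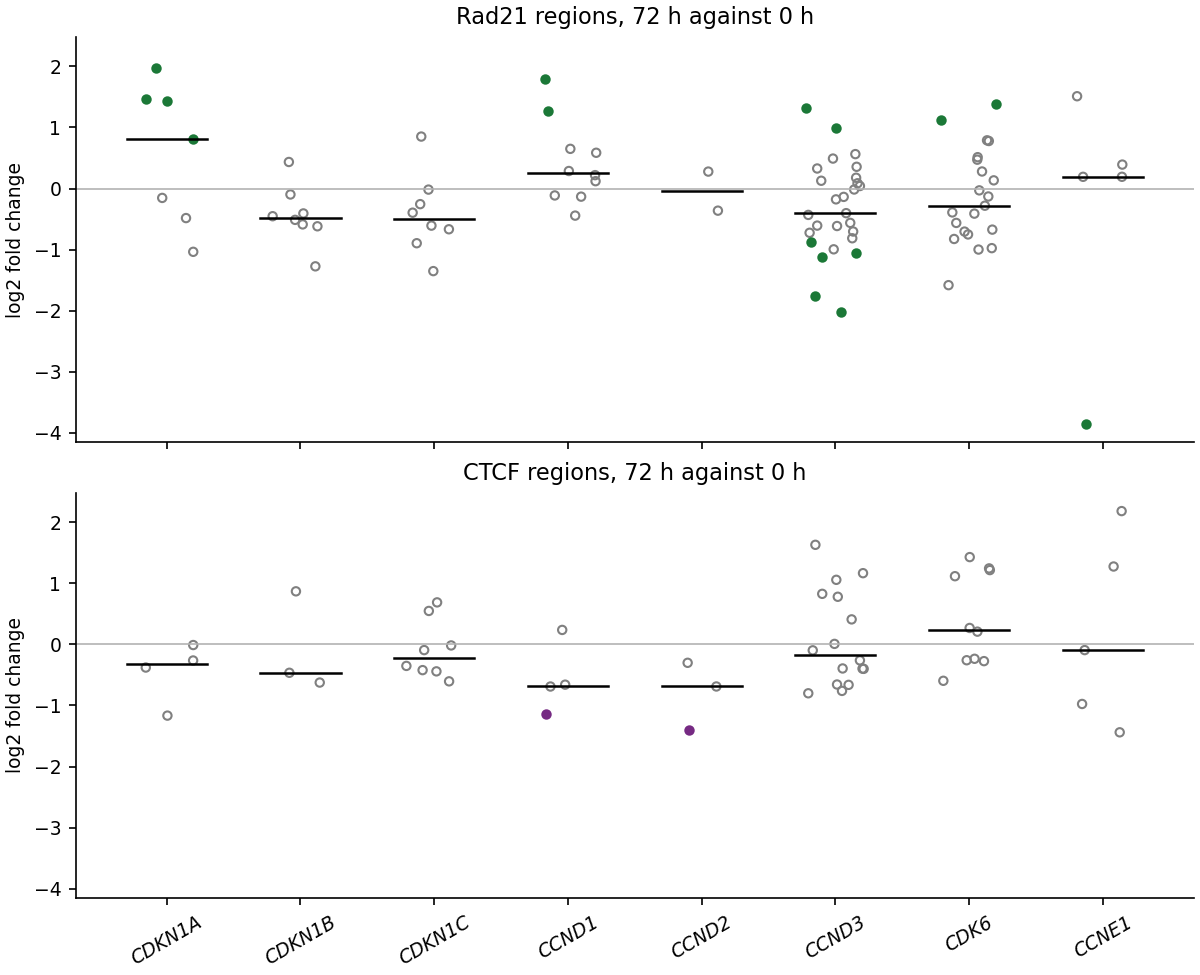
Log2 fold change at 72 h against 0 h of each tested Rad21 (top) and CTCF (bottom) region in the windows of the 8 genes; filled points had an adjusted p under 0.05 and the bar is the gene's median. Rad21 has 10 filled points above and 6 below 0, and CTCF has 2, both below 0.

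CTCF gave few calls. At 6 h 0 of 53 regions were called by edgeR (3 at an unadjusted p under 0.05, 0 by DESeq2), where 2.65% of all 58156 regions were (2.33% higher). At 72 h 2 were, both lower (12 unadjusted, 1 by DESeq2), against 6.79% of all regions, 2.72% lower. From 6 to 72 h edgeR called 0 (8 unadjusted, 0 by DESeq2), against 2.18% (1.73% lower). With total counts the 72 h calls were 2 higher and 1 lower. In the CCND2 window, chr12:4353914-4354339 in TIGAR held 84 and 54 counts at 0 h, 39 and 34 at 6 h, then 34 and 55 at 72 h, a log2 change of −1.40 ± 0.29 (edgeR adjusted p = 0.0136). In the CCND1 window, chr11:69670160-69670846 in LTO1 held 68 and 52 counts at 0 h, 30 and 33 at 6 h, then 42 and 49 at 72 h, a log2 change of −1.14 ± 0.31 (edgeR adjusted p = 0.039). Neither was called without any single 0 h or 72 h library. The strongest CTCF region of CDKN1A, chr6:36680353-36681009, lies under the Rad21 region that rose. It held 108 and 78 counts at 0 h, 59 and 40 at 6 h, then 117 and 201 at 72 h, a log2 change of −0.010 ± 0.24 at 72 h. Over the printed CCND3 start, chr6:41941919-41942247 held 13 and 11 counts at 0 h, 16 and 12 at 6 h, then 25 and 50 at 72 h, a 72 h change of 0.83 ± 0.47 (edgeR adjusted p = 0.25). Summed windows gave 0 of 8 calls at 6 h (5.61% of all windows, 3.66% higher and 1.95% lower; 0 by DESeq2) and 2 falls at 72 h, against 23.7% of all windows, 16.8% lower. The CCND1 window held 58.5 and 55.7 CPM at 0 h, 41.3 and 47.1 at 6 h, then 44.5 and 36.2 at 72 h, a log2 change of −0.52 ± 0.17 (edgeR adjusted p = 0.0313). The CCND2 window held 45.2 and 47.9 CPM at 0 h, 38.8 and 39.9 at 6 h, then 28.5 and 29.1 at 72 h, a log2 change of −0.69 ± 0.18 (edgeR adjusted p = 0.00873). Neither was called under DESeq2 (−0.35 and −0.53) or with total counts (−0.28 and −0.46). Nor were they called without either 72 h library, where the CCND1 value ranged from −0.65 to −0.35.

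The deposited peak lists were called for each library, and for H3K27ac and Jun the 72 h libraries had the highest totals and those at 6 h the lowest. Of the 113 H3K27ac regions, 37.2% (exact 95% interval 28.3 to 46.8%, counting error only) overlapped a peak in both libraries at 0 h, 26.5% (18.7 to 35.7%) at 6 h and 48.7% (39.2 to 58.3%) at 72 h. Over all 95436 H3K27ac regions the shares were 29.2%, 24.1% and 47.99%. For Jun they were 24.7%, 15.8% and 51.4% of 146 regions, and 18.05%, 13.2% and 56.2% of all 138731. By gene, CCND2 had 2 H3K27ac regions with a peak in both libraries at 0 h and 0 at 6 and 72 h, while CCND1 went from 2 to 2 and 4, CCNE1 from 2 to 2 and 4, and CDK6 from 9 to 7 and 13. Of the 8 genes, CCND2 was the only one with no such region at 72 h.

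Other genes of the same pathway were mostly less acetylated under the chosen scaling. Of 24 listed cell cycle genes, 22 had a tested H3K27ac region, taken at the gene start for 17 and as the strongest of the window for the rest. CDKN2A and CDKN2B are not analysed here. At 6 h 1 rose and 18 fell (median log2 change −0.56), and at 72 h 2 rose and 20 fell (median −1.03). All regions had a 72 h median of 0.18, regions with a mean count of at least 50 one of −0.061, and gene windows one of −0.30. The listed regions are gene starts or the strongest of a window, so all regions are an unlike background. Other scalings were not tried for this list, and with the peak-region factors the median of all regions was 0.79 at 72 h. The shares of all regions lower were 26.3% and 38.1%, and those higher 32.3% and 43.4%. At 72 h the falls were largest at the activating transcription factor E2F2 −2.43, cyclin CCNE2 −1.92, the CDK4 and CDK6 inhibitor CDKN2D −1.63 and the pocket protein RBL1 −1.46 (log2 changes). Cyclins CCNA2 −1.42 and CCNB1 −1.37, and E2F1 −1.34, SKP2 −1.30 and CDK4 −1.05, also fell, as did the strongest region of the CDK2 window (−0.69). The CCNE2 value is likewise that of the strongest region of its window. Such a region can lie up to 50 kb from the gene and need not belong to it. The 2 that rose were the start of the pocket protein RBL2 (0.38) and the strongest region in the window of WEE1 (0.81). WEE1 is the kinase that restrains CDK1.

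Marker genes of blood lineages moved over the same hours. In H3K27ac at 72 h, 0 erythroid markers rose and 7 fell of 8 with a tested region (KLF1 −4.98), and their summed level was 646 and 645, 256 and 304 and 257 and 277 CPM at 0, 6 and 72 h. Of 7 megakaryocyte markers 4 rose and 3 fell (VWF 4.96, ITGB3 0.97, ITGA2B −0.59), with sums of 238 and 237, 172 and 187 and 304 and 317 CPM. The VWF change starts from a very low level, 0.227 and 0.527 CPM at 0 h. Of 8 markers of other blood cells 6 rose and 2 fell (CSF1R 6.15, MPO 6.30; PAX5 had 0 counts at 0 h), with sums of 39.4 and 45.7, 87.6 and 73.95 and 137 and 144 CPM. CSF1R (1.14 and 0.843 CPM at 0 h) and MPO (0.227 and 0.474 CPM) also started from low levels. HBG1 and HBE1 of the erythroid list, PF4, PPBP and THBS1 of the megakaryocyte list and CD8A and CD14 of the third had no H3K27ac region in the table. The part of these shifts in the changes at the 8 genes was not tested.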

How the data were processed

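Counts per region and library were deposited by the authors as raw whole numbers in 4 tables, 1 per antibody, over regions shared by all its libraries. The same deposited tables hold the authors' log2 fold changes and adjusted p-values. The authors' peak lists, 1 per library, give each peak's fold enrichment as a ratio and its p and q as −log10 values, per the column order of the format. The submitters' processing notes name Trim Galore 0.4.3, BWA 0.7.17, SAMtools 1.9, deepTools 3.0.1, MACS2 and bedtools 2.26, and the builds hg19 and hg38 with no role. The end of chromosome 20 reaches 64331078 in the tables, past its hg19 length, so coordinates were read as GRCh38, and 1 was added to starts.

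Each antibody was fitted over all its regions and time points in edgeR 4.0.16 (R 4.3.3) with filterByExpr by group, TMM, glmQLFit and glmQLFTest, and p-values were adjusted by Benjamini-Hochberg over all tested regions. The standard error is the log2 change divided by the root of the F statistic. Window sums in edgeR used the same factors, for all RefSeq genes, whose windows overlap. DESeq2 estimated its own factors, for windows from the window sums, so its window values also differ in scaling. Its medians of all H3K27ac windows were 0.033 at 6 h and 0.011 at 72 h. The fits were tested on simulated counts. Replicates correlated at r = 0.85 to 0.99 on the log2 scale across regions. Alternatives were DESeq2 1.42.0, total counts, TMM on regions with a peak in every library, no filter, a mean count of at least 50, 2 time points alone, a replicate block, each library left out, and a window of 10 kb or the gene span alone. Overlap meant at least 1 base (GenomicRanges 1.54.1).

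Regions were named by rule: that over the RefSeq start, the strongest, and those with the largest and smallest called change among regions at or above the antibody's median CPM whose groups did not overlap. 1 H3K27ac region each inside CCND1 and CDKN1C was added after their values were seen. The promoter table held no CDKN1C, CCND1 or CCND2. The RefSeq table gives gene spans without exons, so exon and intron are not given. Likeness of genes over the 6 libraries was not computed, since libraries fall into 3 clusters by time. The members, gene lists and rules were chosen with earlier results of these data known.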

Additional observations from a re-analysis of the deposited data

Results flagged for a closer look

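A Jun region of the CDKN1C window was called in opposite directions at the 2 later times. It lies at chr11:2912528-2913652 in SLC67A1 and held 97 and 125 counts (14.1 and 17.8 CPM) at 0 h, 98 and 162 counts (22.1 and 29.4 CPM) at 6 h and 236 and 274 counts (11.2 and 11.6 CPM) at 72 h. In CPM the 6 h libraries were the highest and the 72 h libraries the lowest, with log2 changes against 0 h of 0.70 ± 0.21, edgeR adjusted p = 0.019, at 6 h and −0.49 ± 0.20, edgeR adjusted p = 0.049, at 72 h. The difference between the later times was itself tested and was −1.19 ± 0.20, edgeR adjusted p = 2.32e-04. The overlapping H3K27ac region was higher at both times (1.47 and 0.92). With total counts the 72 h value was 0.076 and with the peak-region factors 0.30, and under DESeq2 neither call against 0 h held (0.64 and −0.58). The 6 h call was also lost without replicate 1 at 0 h (0.54) or replicate 2 at 6 h (0.38), and the 72 h call without replicate 2 at 0 h (−0.31).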

How the results depend on the processing

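Apart from the main counts of calls, 4064 alternatives were unchanged by the rule used. They cover single regions and windows, counts by gene or direction, peak shares and pairs of regions. The rule also passes counts that moved little and counts that stayed at none, so that number is no measure of stability. For the main counts, 160 alternatives were unchanged and 62 moved. Outside the main counts, 567 counts or shares moved. Among single regions and windows, 193 alternatives lost the call, 33 gained it and 33 turned the sign of a change called in either setting. The cause was not tested. With the peak-region factors the Jun windows at 72 h became 0.060 (CCND3), 0.65 (CDK6), 0.10 (CDKN1C), 0.48 (CCND1), 0.44 (CCND2), 0.48 (CDKN1B) and 0.67 (CCNE1), and with total counts 0.43 (CDK6), 0.25 (CCND1), 0.22 (CCND2), 0.25 (CDKN1B) and 0.45 (CCNE1). The CDKN1C H3K27ac window became 0.067, 0.18 and 0.16 at 6 h and 0.23, 0.52 and 0.15 at 72 h with DESeq2, the peak-region factors and total counts, and the CCNE1 window 0.14 at 72 h with the peak-region factors. Regions that turned with the peak-region factors at 72 h were, in H3K27ac, those starting at 2867513 near CDKN1C (0.23), 69674342 near CCND1 (0.58) and 92836640 and 92885473 near CDK6 (0.067 and 0.14), and, in Jun, 36680006 in CDKN1A (0.17), 2929533 and 2912528 near CDKN1C (0.065 and 0.30) and 41941751 and 42099531 near CCND3 (0.21 and 0.78). With total counts, 69674342 gave 0.20, 2912528 gave 0.076 and 42099531 gave 0.55 at 72 h. At 6 h, 92836640 gave 0.072 with the peak-region factors and 0.056 with total counts.

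Counts of calls moved as follows. DESeq2 gave 43 H3K27ac regions from 6 to 72 h, 42 and 16 Jun regions at 72 h and from 6 to 72 h, 1 CTCF and 5 Rad21 regions at 72 h, and 3 Jun, 0 CTCF and 1 Rad21 windows at 72 h. A mean count of at least 50, which tests fewer regions, gave 63 H3K27ac regions at 72 h, 22, 38 and 18 Jun regions at 6 h, 72 h and between them, 0 CTCF and 7 Rad21 regions at 72 h, 5 Jun windows at 6 h and 0 CTCF windows. The gene span alone gave 32, 42 and 30 H3K27ac, 18, 28 and 8 Jun, 0 CTCF and 9 Rad21 regions, and a 10 kb window 59 H3K27ac regions at 72 h, 21, 39 and 13 Jun, 0 CTCF and 9 Rad21 regions. Total counts gave 3 CTCF regions from 6 to 72 h, and 3 Jun and 0 CTCF windows at 72 h. The peak-region factors gave 0 CTCF windows, no filter 1 Rad21 window, and a fit of 2 time points alone 6 CTCF regions at 72 h.

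Leaving out each library in turn gave 60 to 70, 84 to 96 and 45 to 65 H3K27ac regions at 6 h, 72 h and between them, 21 to 33, 34 to 76 and 5 to 35 Jun regions, 0 to 0, 0 to 5 and 0 to 1 CTCF regions, and 5 to 14 Rad21 regions. Windows ranged from 5 to 7 and 6 to 7 (H3K27ac), 0 to 3 and 4 to 6 (Jun), 0 to 1 and 0 to 4 (CTCF), and 1 to 3 (Rad21). The Jun windows at 6 h fell to 0 without replicate 2 at 0 h and to 1 without replicate 2 at 72 h. CTCF regions at 72 h fell to 0 without any single 0 h or 72 h library, and were 4 and 5 without replicate 1 or 2 at 6 h; CTCF windows were 1 without replicate 1 at 0 h, 0 without replicate 2 there or either 72 h library, and 4 without either 6 h library.

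Same-numbered libraries deviated together at r = −0.0084 to 0.124, so numbers were not taken as pairs. With the replicate number as a block (replicate block), H3K27ac calls at 72 h were 43 higher and 53 lower, Jun 22 and 45, CTCF 1 and 3 and Rad21 10 and 7. Peak shares with a −log10 q of at least 10 were lower. What depth limits was not tested apart from the mean-count filter.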

Other observations

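Some H3K27ac regions changed course after 6 h. Of the 113, 7 had fallen at 6 h and then rose from 6 to 72 h, 4 of them in CCND3, 2 in CDKN1C and 1 in CDK6. Another 9 had risen at 6 h and then fell, 5 in CDK6, 3 in CDKN1A and 1 in CDKN1C. CDKN1B, CCND1, CCND2 and CCNE1 had no region of either kind. These are calls of 2 separate tests in 1 fit, and over all regions 3.90% and 5.28% had these courses. They were counted under the chosen scaling only. The median of all regions from 6 to 72 h was 0.022, −0.080 with total counts and 0.28 with the peak-region factors.

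The authors' deposited tables give each region a time class and a log2 fold change, and the 2 did not always share a direction. For CCND2, the 2 H3K27ac regions classed upLate and the 1 classed upEarly all had 72 h log2 fold changes below 0 in the authors' deposited table (medians −4.15 and −2.08). All 6 member Jun regions classed upLate in the authors' deposited table were likewise below 0 (median −2.34). Over the whole H3K27ac table the authors' deposited table had 5991 of 22063 upLate regions below 0 and 5503 of 7711 downEarly regions above 0, and for Jun 3491 of 6902 upLate regions below 0. In the authors' deposited table for Rad21 all 1898 regions classed up were above 0 and all 87 classed down below 0. The classes were therefore not used for direction here. Most member regions were classed static in the authors' deposited tables: 89 of 113 for H3K27ac, 133 of 146 for Jun and all of CTCF and Rad21.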
